A study of Arabidopsis thaliana with 33 samples.

Results

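ATA20, ATA27, SHT, UNDEAD and AT1G33430 are 5 Arabidopsis thaliana genes that act in the tapetum, the inner cell layer of the anther, or in building the pollen wall. They were taken by locus (AT3G15400, AT1G75940, AT2G19070, AT4G12920 and AT1G33430, in that order), and each had 1 probe, so 5 probes were followed among 26090 gene probes, of which 13912 could be tied to a current locus. ATA20, ATA27, SHT and AT1G33430 were strongly lower than wild type in the flowers of nzz, with fitted ratios from 22.0-fold to 74.7-fold lower. The largest, of ATA27, includes 2 of 4 arrays at the limit of the scale. In ms1, ATA27 and SHT lay far below 0 on all 4 arrays without passing the test, while ATA20 and AT1G33430 lay near 0. In ap3 only AT1G33430 passed the test, and UNDEAD passed in no group.

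The tapetum feeds the developing microspores, secretes precursors of the outer pollen wall (the exine) and, as it breaks down, leaves lipids and proteins on the grains as the pollen coat. ATA20 encodes a glycine-rich protein of the anther, and ATA27 a protein of the beta-glucosidase family made in the tapetum. SHT is the acyltransferase that joins hydroxycinnamic acids to spermidine, giving phenolamides of the pollen coat. UNDEAD is an aspartic protease that the tapetal regulator MYB80 acts on and that is linked to the timing of tapetal cell death, and AT1G33430 is a galactosyltransferase of the pollen wall. MS1 is a late tapetal regulator whose loss leaves the plant without viable pollen. NZZ, also called SPL, is needed to form sporogenous tissue and the tapetum itself, and AP3 is needed to form petals and stamens.

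Mutant and wild-type RNA were set against each other on 33 arrays with 2 dyes. The ap3 comparison used the inflorescence meristem and buds up to early stage 10, and the nzz and ms1 comparisons used meristem and buds up to stage 13, with 4 arrays each, 2 per dye orientation. For the ms1 series, flowers of ms1 and of wild type were sorted by age into 7 samples, and 3 sets gathered on separate days gave each sample 3 arrays. All plants grew in constant light, each sample pooled tissue of 50 plants, and the labels give no alleles or background strain. In the series, sample 1 is labelled as stage 13 flowers, samples 2 to 6 as successively younger pairs of buds, and sample 7 as the meristem together with all buds younger still. The dye of the ms1 RNA was Cy3 in sets 1 and 3 and Cy5 in set 2. The labels speak of at least 3 independent samples per comparison, and leave it unclear whether any of the 4 arrays per mutant shared RNA, so the p-values measure the spread between these arrays.

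The values are log ratios of whole flowers, so no level of any gene is known, and fewer cells of a type cannot be told apart from less RNA per cell. The base of the logarithm and the direction of the ratio are inferred. The deposited values ended at 2 and -2, and with base 10 this end is a ratio of 100-fold, or 6.64 on the log2 scale. A positive deposited value was taken to mean more RNA in wild type, because all 32 values of 8 genes of mature pollen were positive in nzz and all 32 in ms1, on arrays of both dye orientations. The direction is therefore likely, not settled, and the opposite reading would exchange lower and higher without altering any call. If the table instead held ratios of one dye over the other, none of the 5 genes would be called in ap3 or nzz or in any difference between mutants. Below, every ratio is log2 of mutant over wild type, a call is an adjusted p under 0.05 from limma with Benjamini-Hochberg adjustment over all probes tested, and an error is the fit's standard error.

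Quality differed between arrays. A value at the limit gives no size of its own, and such values made up 2.37% to 17.7% of an array. The Cy5 channel was brighter in 97.4% of them, so their sign largely followed the dye orientation. Of the 165 values of the 5 genes, 12 lay at the limit: 7 of SHT, 3 of ATA27, 1 of UNDEAD and 1 of AT1G33430, with Cy5 brighter in 11 of the 12. AP3 and MS1 have no named probe among those used here. The SPL probe gave -0.26 ± 0.12 (n = 4 arrays, limma adjusted p = 0.174) in nzz, and as the allele is not given this level checks nothing about the genotype. The age labels of the series go against the pollen genes: of 8 genes of mature pollen, 0, 1, 1, 2, 3, 5 and 4 were called lower in the samples labelled 1 to 7. Of all probes, between 0.00767% and 0.833% were called lower in a sample. VGD1, a pectin methylesterase of pollen, was at -0.60 in the sample labelled 1, which should hold mature flowers, and at -3.73 in the sample labelled 7, which should hold the youngest buds. The samples are therefore named only by their labelled numbers, and no age is read from them.

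The nzz comparison asked which genes depend on sporogenous tissue. Of the 5 genes, 4 were called lower in nzz, where 6.91% of all probes tested were called lower. Their median ratio was -5.01, beside a median of 0.10 over all probes.

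ATA27 showed the lowest ratio of the 5. It was at -5.91 and -5.69 on the arrays with nzz RNA in Cy5 and at the limit of -6.64 on both with nzz RNA in Cy3. The fitted ratio was -6.22 ± 0.86 (74.7-fold lower, n = 4, limma adjusted p = 0.00231), with 2 arrays at the limit. With limited values treated as missing, too few arrays were left for a test. It was the 4th lowest of 26046 probes tested. All 4 arrays were thus near or at the lower end of the scale.

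SHT was at -4.29, -3.95, -5.15 and, at the limit, -6.64 on nzz replicates 1 to 4. All 4 arrays were low, and the fit gave -5.01 ± 1.34 (n = 4, limma adjusted p = 0.0371). The fit shared its spread with ap3, where SHT had arrays at both limits, and with limited values treated as missing the ratio was -4.77 ± 0.66 (adjusted p = 0.00496, n = 3). The call was lost when any 1 of the 4 nzz arrays was left out, with fitted ratios between -5.69 and -4.54.

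AT1G33430 was at -4.36, -4.0, -5.96 and -5.89 in nzz. The arrays with nzz RNA in Cy3 lay lower than those with it in Cy5, and none came near 0. The fitted ratio was -5.05 ± 0.36 (33.2-fold lower, n = 4, limma adjusted p = 0.000134), the 39th lowest of 26046. ATA20 was at -3.75, -3.62, -4.81 and -5.65, again lower on the Cy3 arrays. Its fitted ratio was -4.46 ± 0.51 (22.0-fold lower, n = 4, adjusted p = 0.000895).

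UNDEAD stood apart from the other four in nzz, at 0.38, 0.04, -0.56 and -0.38. The arrays lay on both sides of 0, and the fit gave -0.13 ± 0.86 (n = 4, limma adjusted p = 0.955). Its wide interval, from -2.08 to 1.82, leaves room for a moderate difference, and part of that width comes from 1 limited array of ms1 in the same fit.

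**Figure D1:**
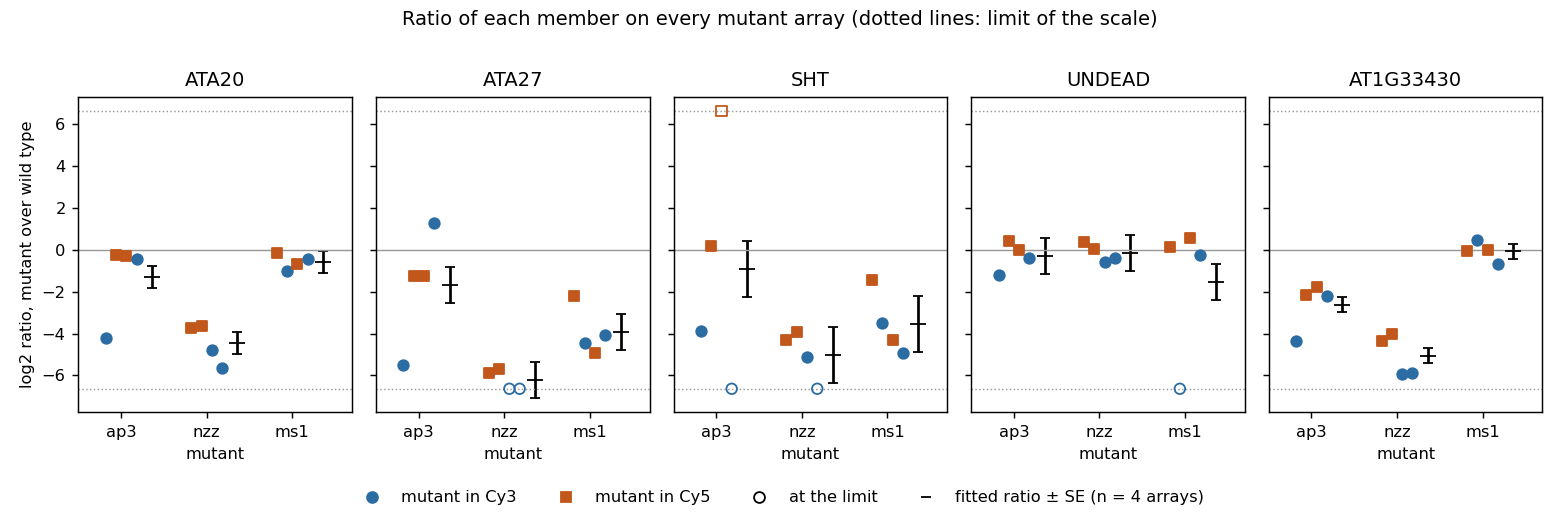
Log2 ratio of mutant over wild type on each of the 12 mutant arrays for the 5 genes, with the dye of the mutant RNA by colour and shape, open symbols at the limit of the scale, and the fitted ratio with its standard error (n = 4 arrays) in black. ATA20, ATA27, SHT and AT1G33430 lie at -3.62 or lower on every nzz array, while UNDEAD lies between -1.18 and 0.59 on all arrays but 1 in ms1.

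The ms1 comparison asked which genes depend on pollen development and maturation. None of the 5 genes was called in ms1 (0 of 5 by limma, 2 of 5 at an unadjusted p under 0.05, namely ATA27 and SHT), where 1.74% of all probes were called lower and 14.5% had an unadjusted p under 0.05. The median of the 5 ratios was -1.55, beside 0.02 over all probes.

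ATA27 was at -2.22, -4.44, -4.92 and -4.08 in ms1. All 4 arrays were low, in both dye orientations, and the fitted ratio was -3.91 ± 0.86 (15.1-fold lower, n = 4). It missed the threshold with a limma adjusted p of 0.0591, although it ranked 54th lowest of 26039 probes. SHT was at -1.45, -3.52, -4.30 and -4.91, also low on all 4 arrays. The fit gave -3.54 ± 1.34 (11.7-fold lower, n = 4, adjusted p = 0.269). With limited values treated as missing, the ratio stayed at -3.54 with an error of 0.56, and SHT was called (adjusted p = 0.0237). Of all probes, 3.06% were called in ms1 in that setting, in either direction.

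ATA20 and AT1G33430 lay near 0 in ms1. ATA20 was at -0.17, -1.03, -0.66 and -0.43, all slightly below 0, with a fitted ratio of -0.57 ± 0.51 (n = 4, limma adjusted p = 0.636). AT1G33430 was at -0.07, 0.48, 0.01 and -0.67, on both sides of 0, with -0.06 ± 0.36 (n = 4, adjusted p = 0.975) and an interval from -0.87 to 0.75. UNDEAD was at 0.12, -6.64, 0.59 and -0.27 in ms1. Its replicate 2 was at the limit and the other 3 arrays lay near 0, so the fitted ratio of -1.55 ± 0.86 rests on 1 array, and without limited values it was 0.02 ± 0.17 (n = 3).

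In ap3, 1 of the 5 genes was called lower, where 0.123% of all probes were. AT1G33430 was at -4.34, -2.15, -1.76 and -2.21 on ap3 replicates 1 to 4, low on all 4 arrays. The fitted ratio was -2.62 ± 0.36 (6.13-fold lower, n = 4, limma adjusted p = 0.0372). The call was lost without any 1 of the 4 arrays, although the ratio then stayed between -2.96 and -2.16.

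The other four genes did not pass in ap3, and their arrays spread widely. ATA20 was at -4.22 on replicate 1 and between -0.45 and -0.25 on the other 3 arrays, for a fit of -1.30 ± 0.51 (n = 4, limma adjusted p = 0.459). ATA27 ran from -5.50 on replicate 1 to 1.31 on replicate 4. SHT was at the upper limit on replicate 3 and at the lower limit on replicate 4, so no size can be given. UNDEAD was between -1.18 and 0.44.

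Replicate 1 of ap3 stood apart for these genes. It was the lowest of the 4 ap3 arrays for 4 of the 5 genes, and for 3 of 4 measured tapetal transcription factors. Over all 26090 gene probes, it was the lowest of the 4 for 6550. The median of the 5 genes was -4.22 on that array and between -0.45 and -0.25 on the others, and the median of the tapetal factors was -3.45 there and between -2.60 and -0.09 elsewhere. The 8 genes of mature pollen had medians between -0.71 and -0.57 on all 4 arrays, and the array's median over all probes was 0.02. The part that tissue age played in this array was not tested.

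The differences between mutants were tested directly. Between nzz and ms1, 1 of the 5 genes differed, where 0.685% of all probes were called in either direction. AT1G33430 was lower in nzz than in ms1 by 31.8-fold (log2 difference nzz minus ms1 -4.99 ± 0.51, n = 4 and 4, limma adjusted p = 0.00803). The arrays ran from -5.96 to -4.0 in nzz and from -0.67 to 0.48 in ms1. The call held without any 1 of the 8 arrays.

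ATA20 gave -3.89 ± 0.72 for nzz minus ms1 and missed the threshold narrowly (n = 4 and 4, limma adjusted p = 0.0565). Its arrays ran from -5.65 to -3.62 in nzz and from -1.03 to -0.17 in ms1. ATA20 was called when arrays were centred on their medians or limited values were treated as missing. Of all probes, 0.877% and 1.13% were called in these settings, in that order. For ATA27 the difference was -2.31 ± 1.22 (interval -5.07 to 0.46) and for SHT -1.46 ± 1.89 (interval -5.74 to 2.82), neither past the threshold. The tests thus placed only AT1G33430 apart between nzz and ms1, and did not show that ATA27 and SHT were lowered more in one mutant than in the other.

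Between ap3 and nzz, 1 of 5 genes differed, where 2.9% of all probes did. AT1G33430 was 5.42-fold less reduced in ap3 (log2 difference ap3 minus nzz 2.44 ± 0.51, n = 4 and 4, limma adjusted p = 0.0419). Leaving out 1 array kept this call in only 1 of 8 cases. The ap3 tissue stopped at an earlier stage than the nzz tissue, so genotype and stage cannot be told apart here. Between ap3 and ms1, none of the 5 was called (0 by limma, 1 at an unadjusted p under 0.05, AT1G33430), where 0.312% of all probes were called and 9.21% had such a p. AT1G33430 gave -2.55 ± 0.51 for ap3 minus ms1 (n = 4 and 4, limma adjusted p = 0.0867).

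The ms1 series asked when these differences appear among flowers of different age. None of the 5 genes was called in either direction in any of the 7 samples, against backgrounds of 0.00767%, 0.376%, 0.833%, 0.652%, 0.79%, 0.713% and 0.552% of probes called lower in samples 1 to 7. At an unadjusted p under 0.05, ATA27 was lower in samples 2 to 5, SHT in samples 2 to 4 and ATA20 in sample 7, while AT1G33430 was higher in sample 7, resting on 1 limited array. Of all probes, 15.2%, 9.18%, 5.05%, 6.88% and 6.51% had such a p in samples 2, 3, 4, 5 and 7. No gene of the 5 passed the test of variation over the 7 samples, where 1.34% of all probes did. ATA27 had the highest F of the 5, at 3.25 (unadjusted p = 0.0319, limma adjusted p = 0.664).

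ATA27 and SHT were both low in samples 2 to 5 and higher in sample 6, though neither passed the test of variation. ATA27 was between -5.67 and -3.13 on all 12 arrays of samples 2 to 5, with a median of -4.39. On the 3 arrays of sample 6 it was at 3.12, 0.41 and 0.04, above every array of samples 2 to 5. In sample 7 it was at 0.86, -3.74 and 0.99, with set 2 apart from the others.

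Sample 1 gave no common value for ATA27. Its 3 arrays were at -2.92, 2.88 and, at the limit, -6.64. The fitted ratios of ATA27 in samples 1 to 7 were -2.26, -5.02, -4.85, -3.99, -3.89, 1.16 and -0.66, each ± 1.3 (n = 3 arrays). In samples 2 to 5 these were reductions of 32.4-fold, 28.9-fold, 15.9-fold and 14.9-fold.

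SHT was between -5.77 and -2.96 on all 12 arrays of samples 2 to 5, with a median of -4.91. On the 3 arrays of sample 6 it was at -0.30, -0.39 and -0.67, again above every array of samples 2 to 5. Samples 1 and 7 each held 1 array at the upper limit, 1 at the lower limit and 1 near 0 (0.66 and -0.27), and give no size. The limited value was positive in set 2 and negative in set 3 in both samples, with Cy5 the brighter channel each time.

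The limited arrays of samples 1 and 7 set the error that SHT had throughout the fit. With values as deposited, SHT was at -3.98, -4.49, -4.50 and -3.17 in samples 2 to 5, each ± 1.74 (n = 3), and limma adjusted p ran from 0.292 to 0.923. With limited values treated as missing, it was at -4.40, -4.92, -4.92 and -3.59, each ± 0.32, and was called in all 4 samples, the highest adjusted p being 7.64e-05. ATA27 was then also called in samples 2 to 5, with adjusted p of 0.0209, 0.0113, 0.0485 and 0.0462. Of all probes, 0.722%, 2.08%, 1.93% and 2.46% were called in these samples in that setting, in either direction. With the sets as blocks as well, SHT kept the 4 calls, and ATA27 kept those in samples 2, 3 and 5. The shares of all probes were then 1.03%, 2.71%, 2.6% and 3.7%. Setting limited values aside removes spread, since the farthest values go first, so these calls are conditional on that choice.

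**Figure D2:**
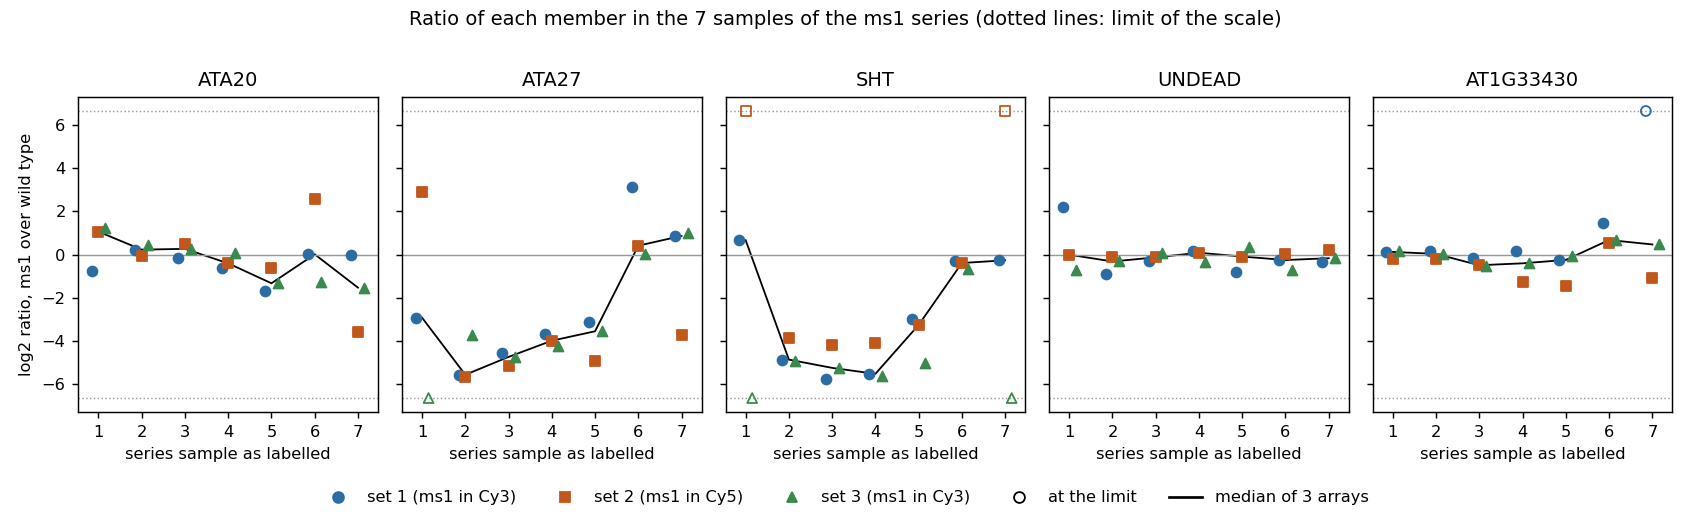
Log2 ratio of ms1 over wild type on the 21 arrays of the ms1 series for the 5 genes, by labelled sample number, with sets by colour and shape, open symbols at the limit, and a line through the median of the 3 arrays. ATA27 and SHT lie at -2.96 or lower on all arrays of samples 2 to 5 and higher in sample 6, where SHT is between -0.67 and -0.30 and ATA27 between 0.04 and 3.12. UNDEAD lies between -0.89 and 0.36 on all arrays but 1.

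**Figure D3:**
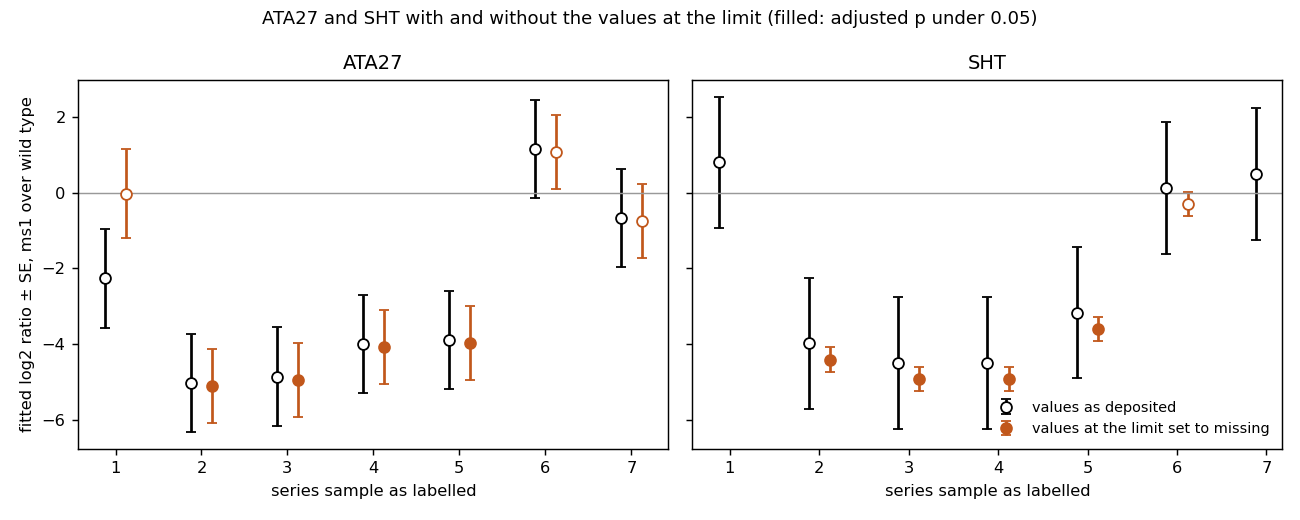
Fitted log2 ratio with its standard error (n = 3 arrays per sample, fewer where values were set aside) of ATA27 and SHT in the series, with values as deposited in black and with limited values treated as missing in orange, filled where called. The ratios of samples 2 to 5 move little while the error of SHT falls from 1.74 to 0.32; SHT in samples 1 and 7 is left with 1 array and no fit.

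The contrast of samples 6 and 7 with samples 3 and 4 was chosen after the values were seen, and 2.17% of all probes were called in it in either direction. None of the 5 genes was called with values as deposited (0 by limma, 3 at an unadjusted p under 0.05, as had 8.55% of all probes). ATA27 was higher in samples 6 and 7 by 4.67 ± 1.29 on the log2 scale (n = 6 and 6 arrays, limma adjusted p = 0.0967), and it was called with limited values treated as missing (4.67 ± 0.97, adjusted p = 0.0114) or without set 2 (5.55 ± 0.91, adjusted p = 0.0274). Of all probes, 3.6% and 1.22% were called in these settings, in that order. With values as deposited, SHT gave 4.80 ± 1.72 (adjusted p = 0.3). In the order of the fitted ratios, no neighbouring pair of samples differed by more than 2 standard errors for any of the 5 genes.

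AT1G33430 was between -0.22 and 0.15 on the arrays of sample 1 and between -1.45 and 0.16 on those of samples 2 to 5. The lowest were the arrays of set 2 in samples 4 and 5, at -1.29 and -1.45. Fitted ratios in samples 1 to 5 ran from -0.79 to -0.18, each ± 0.84, and none was called. All 3 arrays of sample 6 were above 0, at 1.46, 0.55 and 0.67, above every array of samples 2 to 5. Sample 7 held 6.64, at the limit, -1.07 and 0.47. Its fitted ratio of 1.81 ± 0.84 (n = 3, limma adjusted p = 0.767) rests on 1 limited array. Without limited values it was -0.30 ± 0.26 there.

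ATA20 was between -1.70 and 0.48 on the arrays of samples 2 to 5, on both sides of 0. All 3 arrays of sample 5 were below 0, at -1.70, -0.63 and -1.33, with a fitted ratio of -1.17 ± 0.64 (n = 3, limma adjusted p = 0.927). Sample 6 spread from -1.29 to 2.57. In sample 7 all 3 arrays were below 0, from -3.57 to -0.03, for -1.66 ± 0.64 (n = 3, adjusted p = 0.617).

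UNDEAD was the flattest of the 5 in the series. Of its 21 arrays all but 1 lay between -0.89 and 0.36, the exception being 2.20 in set 1 of sample 1. The fitted ratios ran from -0.42 in sample 2 to 0.52 in sample 1, each ± 0.39 (n = 3). Whether this probe reads a transcript above background cannot be seen from ratios alone.

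Other genes of the tapetum and pollen wall are given as values in the same fits. Of 10 tapetal transcription factors 4 were measured, and 3 of the 4 were called lower in nzz, with a median of -1.95. Of all probes, 6.91% were called lower there, with a median of 0.10. AMS, a bHLH factor needed for tapetal function, was at -5.32 ± 0.61 in nzz (n = 4, limma adjusted p = 0.000867). In ms1 AMS was at 1.17 ± 0.61 (adjusted p = 0.415), above 0 on all 4 arrays, and its difference between nzz and ms1 passed (-6.49 ± 0.86, adjusted p = 0.0165). None of the 4 was called in ms1 or ap3. The factor bHLH091 (AT2G31210) was at -2.63 ± 0.54 in ap3, the lowest of the 4 there, and at -2.43 ± 0.54 in nzz, where it was called (adjusted p = 0.019).

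In the series, AMS lay between 1.14 and 2.56 on the arrays of samples 3 to 5, where ATA27 and SHT were low, and was not called there. AMS was at 0.85 in sample 2, where ATA27 and SHT were also low. It was at 1.88 in sample 6, where they were no longer low, and was called in neither. In sample 7 AMS had only 2 arrays, 1 at the limit of -6.64 and 1 at -1.99. The fit gave -4.32 ± 0.70 and a call (n = 2, limma adjusted p = 0.00936), which thus rests on 1 limited value and 1 other. The factor bHLH010 (AT2G31220) fell modestly in samples 3 to 5, by 0.88, 0.97 and 0.86 on the log2 scale, with adjusted p between 0.00245 and 0.00785 (n = 3 arrays each).

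EXL5 (AT1G75920), an extracellular lipase of the pollen coat, shared some but not all of the samples in which ATA27 and SHT were low. It was called lower in nzz (-4.33 ± 0.59, n = 4, limma adjusted p = 0.00209) and in ms1 (-3.40 ± 0.59, adjusted p = 0.0217). In series samples 3 to 5 it was at -5.50, -5.81 and -5.39, each ± 0.90 and each called (n = 3). In sample 2, where ATA27 and SHT were low, EXL5 was at -1.0 and not called. In sample 6, where ATA27 and SHT were no longer low, it was at -2.84 without a call, below 0 on all 3 arrays with 1 at the limit. It was 1 of only 2 measured among 17 genes of the pollen coat; the other, EXL2 (AT1G75890), was not called in any group.

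PASPA3 (AT4G04460), an aspartic protease used as a marker of developmental cell death, was called lower in nzz (-4.42 ± 0.34, n = 4, limma adjusted p = 0.000151) and in ms1 (-2.14 ± 0.34, adjusted p = 0.0138). It was also called in series samples 3 to 5, at -3.31, -3.04 and -2.26. UNDEAD, the aspartic protease among the 5 genes, showed no such values. Of 7 genes linked to tapetal death 3 were measured, and BVPE and RBOHE (AT1G19230) were not called in any group.

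SWEET8, a sugar transporter needed for the exine, followed AT1G33430. It was at -4.21 ± 0.40 in nzz (n = 4, limma adjusted p = 0.000374) and 0.27 ± 0.40 in ms1 (adjusted p = 0.796), and the difference between nzz and ms1 passed (-4.49 ± 0.56, adjusted p = 0.0132). On the 3 arrays of series sample 6 it was between 2.26 and 2.58, without a call (adjusted p = 0.13). INP1, the other of 2 genes measured of 13 for exine pattern and microspore release, was not called. UGT79B6, which glycosylates flavonols of pollen, was called lower in nzz (-0.93 ± 0.18, adjusted p = 0.01) and ms1 (-1.01 ± 0.18, adjusted p = 0.0237), and was the only 1 measured of 5 genes for phenolamides and flavonols. Of 9 genes for sporopollenin synthesis and export, 0 had a named probe among those used here.

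Markers of other cells moved in the same comparisons. Of 8 genes of mature pollen, 7 were called lower in nzz (median -2.77) and 5 in ms1 (median -2.75), and VGD1 alone in ap3. Of all probes, 6.91%, 1.74% and 0.123% were called lower in nzz, ms1 and ap3. The direction of the ratio was inferred from these 8 genes in nzz and ms1. That they are lower rather than higher there is therefore no result. In the series the samples in which ATA27 and SHT were low, 2 to 5, also held calls of pollen genes. ACT12, an actin of pollen, was called lower in samples 2 to 7, at -1.75, -2.73, -2.24 and -3.75 in samples 2 to 5. VGD1 was called from sample 4 on, at -3.65 there. Both were still called in sample 6, at -3.53 and -4.20, where ATA27 and SHT were no longer low. Of 2 measured meiocyte genes, SDS was called higher in nzz (0.49) and none was called in ms1. SPT of the carpel, CLV3 of the meristem, and RCA and LHCB4.1 of green tissue were not called in any group. The part that the loss of pollen had in the ratios of the 5 genes was not tested.

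**Figure D4:**
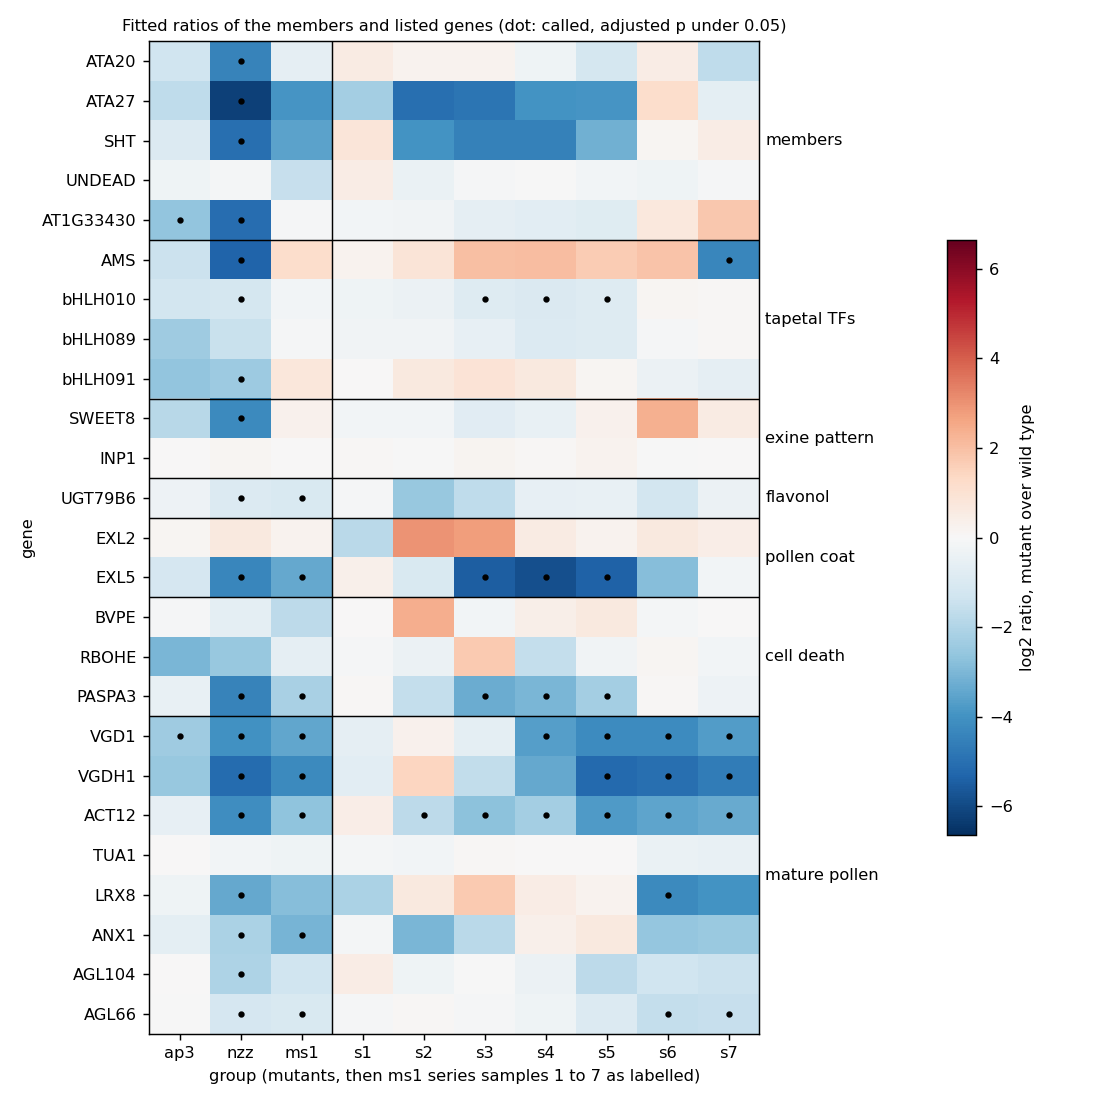
Fitted log2 ratio of mutant over wild type (colour) of the 5 genes and of the measured genes of the tapetum, pollen wall and mature pollen in 10 groups: ap3, nzz, ms1 and series samples 1 to 7 as labelled (n = 4 arrays per mutant, 3 per series sample), with a dot where called. Fewer arrays enter where a value was missing. Calls of EXL5 and PASPA3 lie in samples 3 to 5, those of the pollen genes VGD1 in samples 4 to 7 and VGDH1 in samples 5 to 7, and those of the pollen gene ACT12 in samples 2 to 7.

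The 5 genes fell into different patterns over the 10 groups, described here with no test since the groups share arrays in their fits. Pearson's r of the fitted ratios was 0.88 between ATA27 and SHT and 0.71 between ATA20 and AT1G33430 (n = 10 groups). The ratios of SHT in ap3 and series samples 1 and 7 average arrays at both limits and give no size. ATA27 in sample 1 ran from -6.64 to 2.88. The r of these genes includes such ratios. It was 0.57 between ATA27 and AT1G33430, 0.50 between SHT and AT1G33430, and at most 0.36 for the other pairs.

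The named genes most like each of the 5, by the same r over 10 groups among 2505 candidates, were chosen for that likeness, which is thus no finding. SHT was most like AT1G26720, AT1G20120 and AT2G03740 (r = 0.98, 0.96 and 0.95), with its ratios that give no size again included. AT1G26720 was at -5.77 in nzz, -4.71 in ms1 and -5.65, -5.64 and -4.86 in series samples 3 to 5, and at -0.40 in sample 6, with no value at the limit on any array. ATA27 was most like AT5G48210, AT1G76400 and AT2G03850 (r = 0.92, 0.90 and 0.89), but AT1G76400 had 24 of its 33 values at the limit.

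ATA20 was most like AT1G28375, AT5G09480 and AT1G66850 (r = 0.95, 0.94 and 0.92). AT1G28375 was at -4.99 in nzz, -1.65 in ap3 and -1.48 in series sample 5. AT1G33430 was most like AT2G05540, AT1G27610 and SWEET8 (r = 0.93, 0.91 and 0.90). UNDEAD was most like AT1G20570, AT1G11040 and AT3G60080 (r = 0.82, 0.79 and 0.78), all low in ms1, where the ratio of UNDEAD itself rests on 1 array.

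Most of the measured genes next to the 5 on their chromosomes were not called. Of 50 neighbours, 5 on either side of each gene, 31 were measured. In nzz 6 of the 31 were called lower, where 6.91% of all probes were, and 2 higher, where 2166 of 26046 probes were. Their median was 0.10. In ms1 1 was called lower, where 1.74% of all probes were, and 0 higher. That 1 was EXL5, which lies 2 genes from ATA27 in a run of extracellular lipase genes. Near ATA20, AT3G15440 and AT3G15450, its 4th and 5th neighbours on one side, were at -2.72 and -1.44 in nzz (limma adjusted p = 0.0229 and 0.0135, n = 4). No neighbour was called in ap3, where 0.177% of all probes were called in either direction.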

How the data were processed

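The authors deposited 1 normalized table of ratios, read here as log10 ratios of wild type over mutant on each array; base and direction are inferred from the values, as the results describe. No source used here names the scanner or the normalization method. Of 26540 lines, 450 controls were left out. Probes were tied to loci through the platform annotation and RefSeq gene table. Ratios were multiplied by 3.32, turned to mutant over wild type, and fitted with limma 3.58.1 (R 4.3.3): 12 mutant arrays in one fit and 21 series arrays in another, with a dye term, which in the series also separates set 2 from sets 1 and 3. A probe needed 3 of 4 values per mutant or 2 of 3 per series sample. Fits were tested on simulated data. The number of arrays limits the precision.

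The genes and lists were chosen with earlier results of these data known. List genes are named where called or where lowest or highest of their list, neighbours and like genes by fixed counts (5 genes on either side, 3 most alike with an SD of at least 1 over the groups).

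Per the labels, the sets of the series were collected on different days, so set numbers pair its samples. The main series fit has no term that separates set 1 from set 3. With the sets as blocks, the number of all probes called rose from 230 to 756 in sample 6. In the contrast of samples 6 and 7 with samples 3 and 4 it rose from 565 to 834. After the dye term, arrays of set 1 and of set 3 deviated together (median r = 0.45 and 0.55, 21 pairs each), and those of set 1 against set 3 in opposite directions (-0.55). That opposition follows largely from the fit, in which the 3 deviations of a sample sum to 0. The arrays of set 2 did not deviate together (median r = -0.16, 19 of 21 pairs negative). Set 2 alone has the mutant in Cy5, so the dye term takes up what its arrays share. Probe sequences were not used here, so cross-hybridisation between relatives was not judged.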

Additional observations from a re-analysis of the deposited data

Results flagged for a closer look

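Of 15 sets of 4 arrays (5 genes in 3 mutants), 2 held an array far from the other 3, and chance alone flags about 1 in 20 such sets. ATA20 in ap3 replicate 1 was at -4.22, while the other 3 arrays lay between -0.45 and -0.25. UNDEAD in ms1 replicate 2 was at -6.64, the limit of the scale, while the other 3 lay between -0.27 and 0.59.

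AT1G33430 differed between mutants by the test of the difference itself. It was lower in nzz than in ms1 by a log2 difference of -4.99, which held without any 1 of the 8 arrays. It was less reduced in ap3 than in nzz by a log2 difference of 2.44, a call that was lost in 7 of 8 fits that left out 1 array.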

How the results depend on the processing

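Of 222 pairs of a count of called genes and an alternative, 176 stayed within 1.5 times the count in the report and 46 did not; no called ratio of the 5 genes changed sign. Under a reading of the table as dye ratios there were 0 calls in ap3, in nzz, for nzz minus ms1 and for ap3 minus nzz. Without a dye term, with the replicate block, with all 33 arrays in one fit and with ap3 fitted alone, ap3 had 0 calls, as it did with limited values missing and the replicate block. The difference ap3 minus nzz had 0 calls with no dye term, with the replicate block, with the arrays put on one spread, and with limited values missing and the replicate block, and 2 with limited values missing. For nzz minus ms1, 2 genes were called with centred arrays, with limited values missing and with 33 arrays, and 0 with the replicate block; the replicate numbers of the mutants share only a number (6 of 12 pairs over r = 0.1). With limited values missing, ms1 had 1 call, series samples 2, 3, 4 and 5 had 2 each, and samples 6 and 7 minus 3 and 4 had 1. The shares of all probes called there were 3.06%, 0.722%, 2.08%, 1.93%, 2.46% and 3.6%, in that order. The replicate block added to this setting left 2, 2, 1 and 2 calls in the series samples and 1 in the contrast. Samples 2 and 3 had 1 call each with 33 arrays and 2 each when fitted alone. Leaving out 1 mutant array gave 0 to 0 calls in ap3 and 0 to 3 for ap3 minus nzz (3 without ap3 replicate 1), and nzz had 3 calls each time. Leaving out a whole set of 7 series arrays gave 0 to 1 for samples 6 and 7 minus 3 and 4 (1 without set 2). Left-out arrays and missing limited values leave fewer values by construction; otherwise the cause was not tested. Limited values missing together with the replicate block, and the contrast of samples 6 and 7, were chosen after the data were seen. Some of the sizes given for ATA27 and SHT include values at the limit, which give no size of their own.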
